A study of Mus musculus with 18 samples.

Results

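Cytochrome P450 enzymes of families 1 to 4 are the part of the P450 superfamily that handles foreign compounds, steroids and fatty acids, and the mouse liver expresses many of them. The genes described here are the rows of the deposited table whose symbol is Cyp, a family number from 1 to 4, a subfamily letter and a gene number, without Cyp4a10 and Cyp4a14. This gave 54 genes of the 14451 rows, namely 3 of family 1, 36 of family 2, 4 of family 3 and 11 of family 4. Symbols that end otherwise, such as Cyp4a12a, Cyp4a12b and the pseudogene Cyp2d37-ps, were not taken in. All 54 genes had reads in at least 1 liver, and 49 had a mean value of at least 1.

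The data come from whole livers of WT male mice aged between 8 and 9 weeks, kept in 12 h of light and 12 h of darkness with no other treatment. Livers were taken at zeitgeber times (ZT, hours after the lights come on) 1, 5, 9, 13, 17 and 21, with 3 livers per time point and 1 mouse per liver, so the 18 livers are 18 animals. ZT1, ZT5 and ZT9 lie in the light and ZT13, ZT17 and ZT21 in the dark. The methods of the study state that the mice with the best RNA were chosen for sequencing, and the replicate numbers used below only name livers within a time point. P-values therefore measure the spread between mice, of 1 sex, sampled over 1 day.

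Most of these enzymes sit in the membrane of the endoplasmic reticulum, carry a heme group and receive their electrons from the reductase Por. Their genes lie in clusters of close copies, and many are switched on by receptors that sense foreign compounds, namely AHR, CAR (Nr1i3) and PXR (Nr1i2), or are set by sex through the pattern of growth hormone release. In the liver lobule several of them are known to be expressed around the central vein (pericentral) and a few around the portal vein (periportal).

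Values are estimated reads scaled to an effective library size of 1000000, called normalised values here. Behind them stood 10268168 estimated reads in the shallowest liver and 23242842 in the deepest. In 17 of 18 livers the levels of 18 clock genes were nearest to those of the liver's own time point, and ZT5 replicate 3 was nearer to the mean of ZT9, at a distance of 0.467 against 0.579 to the other ZT5 livers. ZT5 replicate 1 also stood apart for the P450 genes, being the lowest of the 18 livers in 13 of the 54 (24.1%), against 8.0% of all genes. The calls that change without these livers are given after the members. Defining markers of hepatocytes were abundant. The summed markers of Kupffer cells lay between 86.7 and 230 and those of sinusoidal endothelium between 98.8 and 224. Of these markers 2 of 5 and 3 of 5 were called rhythmic, all with a peak in the light, against 35.3% of all genes called. Those of cholangiocytes lay between 5.58 and 15.1, and 3 of 4 (Krt19, Epcam and Sox9) were called, all with a peak in the dark. Called were 2 of 4 markers of hepatocytes, 0 of 5 of stellate cells and 0 of 3 of red blood cells. Of T cells, B cells and neutrophils, 1 of 4 was called. The summed red blood cell markers lay between 96.9 and 367. In whole tissue, fewer cells of a type and less RNA per cell cannot be told apart, and the part of these cells in the results below was not tested.

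Together the 54 genes took between 1.58% and 2.25% of all values. Their summed value was 17644 to 19141 in the ZT1 livers, 14891 to 20435 at ZT5, 17497 to 20050 at ZT9, 19933 to 23866 at ZT13, 21177 to 22230 at ZT17 and 17254 to 19685 at ZT21. Every liver of ZT13 and ZT17 was thus above every liver of ZT1 and ZT21. The highest livers of ZT5 and ZT9 reached into the range of ZT13 but stayed under the lowest of ZT17. As a share of all values this did not hold, since these livers, at 2.11% and 2.02%, were above the lowest of ZT17, at 1.97%. Cyp2e1 alone gave 16.7% of the sum in the lowest liver, at ZT21, and 28.8% in the highest, at ZT13. Without Cyp2e1 the sum was highest at ZT17, at 16736 ± 444.58 (SD, n = 3), and lowest at ZT5, at 13360 ± 1562.3 (SD, n = 3).

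Per kilobase of exon the levels spanned several orders of magnitude. Cyp2e1, which oxidises ethanol and acetaminophen, led with a mean level of 2160 per kilobase. Cyp2f2, known for naphthalene oxidation, followed at 654, and Cyp2c29 at 576, both on the same scale. Cyp2d9, Cyp2d26, Cyp2d10, Cyp1a2, Cyp2c70, Cyp3a11 and Cyp2c50 came next, with levels between 267 and 445 per kilobase. At the other end stood Cyp1b1, and 5 of the 54 genes (Cyp1b1, Cyp2b9, Cyp2g1, Cyp2s1 and Cyp4f18) had a mean normalised value under 1.

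To ask which of these genes follow a daily rhythm, a cosine and a sine of 24 h were fitted with limma to log2(value + 1) of 14449 genes, and P-values were adjusted by Benjamini–Hochberg over all of them. Of the 54 genes, 19 (35.2%) were called at an adjusted P-value below 0.05, against 35.3% of all genes tested, so the share of rhythmic P450 genes was close to that of the transcriptome. Among genes with a mean of at least 1 it was 18 of 49, against 39.1% of all such genes. The fitted peak lay in the dark for 13 of them (24.1% of the 54, against 17.1% of all genes) and in the light for 6 (against 18.2% of all genes). This is 68.4% of the called P450 genes with a peak in the dark, and 48.4% of all called genes. The share depended on scaling. With values scaled to the column sum 4 calls ended, all of genes with a peak in the dark, and the 2 genes that passed had a peak in the light. The amplitude, which is the rise of the fitted curve from its mean to its peak on the log2 scale, had a median of 0.32 over the 19 called genes and 0.28 over all called genes, and of 0.20 over the 54 genes and 0.16 over all genes tested. It was at least 0.5 in 4 of the called genes (Cyp2b10, Cyp2a5, Cyp2g1 and Cyp2c55). The 1 added to each value lowers the amplitude of genes with low values, so amplitudes at low and high levels are not directly comparable. Between the highest and the lowest time point, the livers of 40 of the 54 genes (74.1%) did not overlap, against 70.8% of all genes.

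**Figure D1:**
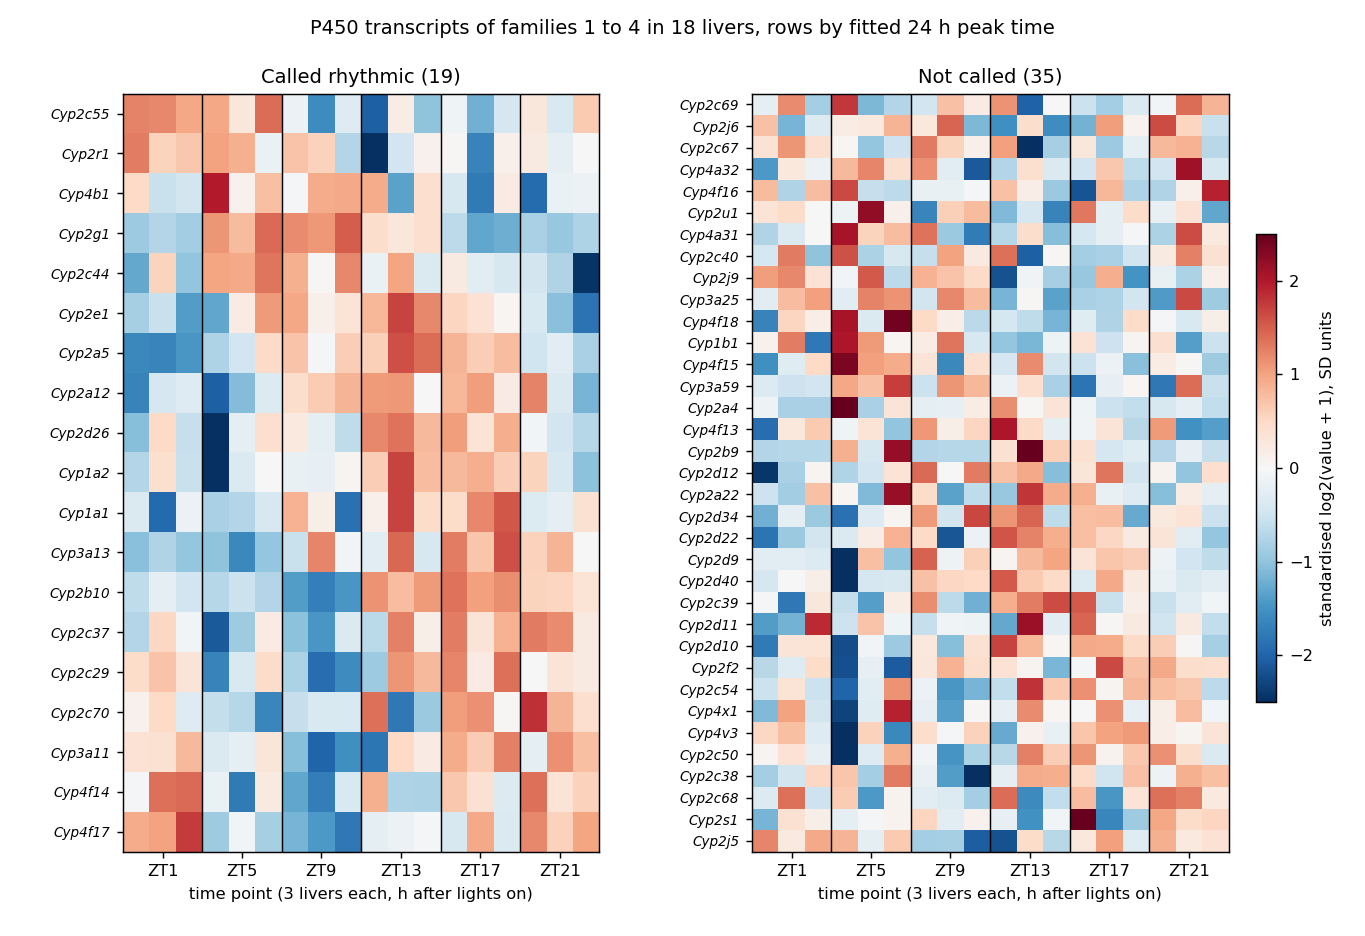
Log2(value + 1) of each of the 54 P450 genes in each of the 18 livers, standardised per gene (colour, SD units), with livers in columns grouped by time point and genes in rows ordered by fitted 24 h peak time. The 19 called genes (left) pass from the light-phase block at the top to the dark-phase block at the bottom, and the column of ZT5 replicate 1 holds the lowest value of 13 and the highest of 7 of the 54 genes.

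The rank test JTK, written again here, called 4 of the 54 genes (7.41%), against 14% of all genes. These were Cyp2a5, Cyp2b10, Cyp2g1 and Cyp3a13, which limma also called. A difference between any of the 6 time points, tested with limma, was found for 10 of 54 (18.5%), against 26.3% of all genes. Of these 10 only Cyp2b9 was not among the 19. A 12 h term beside the 24 h term was called in 0 of 54 by limma, against 0.872% of all genes, and 4 of the 54 had an unadjusted P-value below 0.05, against 12.6% of all genes. The lowest adjusted P-value of the 12 h term was 0.0551, for Cyp2b10. It passed the threshold without ZT1 replicate 1, at 0.0482, and without ZT17 replicate 2, at 0.0438.

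**Figure D2:**
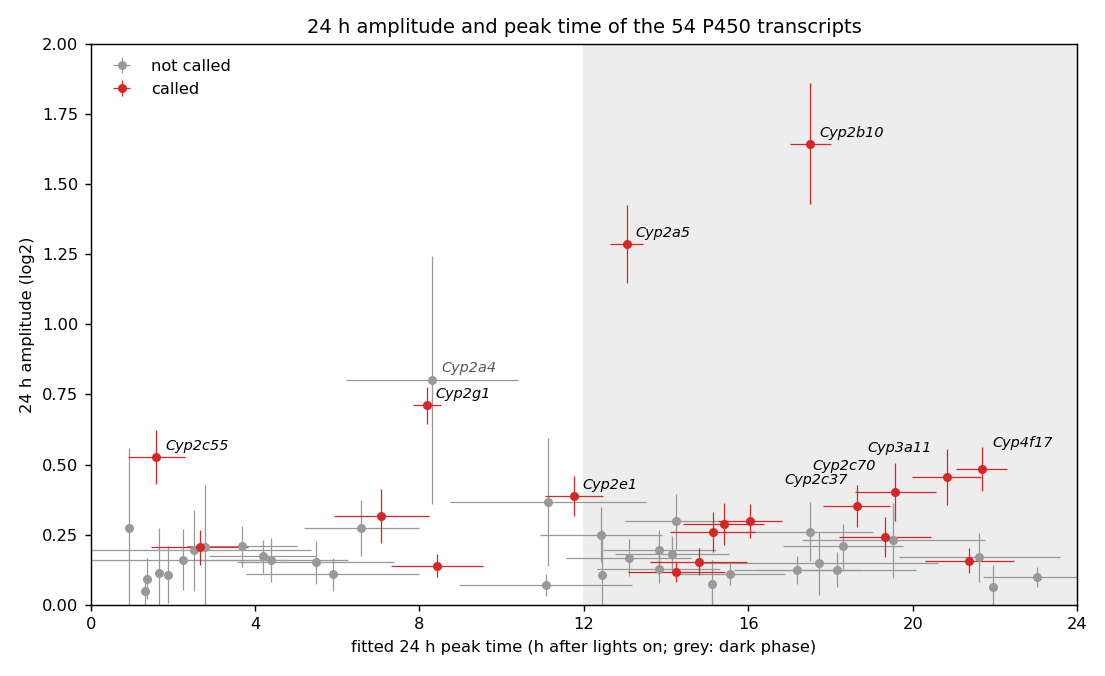
Amplitude of the fitted 24 h rhythm (y axis, log2, ± SE) against fitted peak time (x axis, hours after lights on, ± SE, the bar left out for uncalled genes of SE above 3 h) for the 54 genes, with the 19 called in red. Cyp2b10 and Cyp2a5 stand above all others at 1.64 and 1.29, and Cyp2a4 has the widest error, ± 0.44. This order depends on the 1 added to each value, without which the uncalled Cyp2a4 was at 1.62 and Cyp2a5 at 1.29.

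Cyp2a5, the mouse coumarin hydroxylase that also oxidises nicotine and bilirubin, had the clearest rhythm of the abundant members. Its normalised values were 130, 125 and 143 at ZT1, 235, 290 and 579 at ZT5, 677, 393 and 630 at ZT9, 625, 1293 and 1112 at ZT13, 754, 631 and 708 at ZT17, and 287, 333 and 229 at ZT21. All ZT1 livers were thus below all livers of the other time points, and the mean was 7.61-fold higher at ZT13 than at ZT1. The fitted amplitude was 1.29 ± 0.14 (SE, log2) with a peak at 13.0 ± 0.41 h (adjusted P-value of 8.35e-06 in limma). The highest ZT5 value, 579, belonged to the liver whose clock genes were nearer to ZT9, and without it the amplitude was 1.37 and the peak 13.4 h.

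Cyp2a5 has a close copy, Cyp2a4, a steroid hydroxylase known to be higher in female liver. The windows of RefSeq (GRCm38.p6) upstream of both starts are shown because they differ at few positions although the levels of the pair were far apart. They are written 5′ to 3′ on the plus strand and end before the starts of both RefSeq and GENCODE, and capitals mark the bases that differ between them over 216 aligned positions, of which 212 were identical. The windows lie at chr7:26306942-26307168 for Cyp2a4 and chr7:26835089-26835304 for Cyp2a5.
Cyp2a4: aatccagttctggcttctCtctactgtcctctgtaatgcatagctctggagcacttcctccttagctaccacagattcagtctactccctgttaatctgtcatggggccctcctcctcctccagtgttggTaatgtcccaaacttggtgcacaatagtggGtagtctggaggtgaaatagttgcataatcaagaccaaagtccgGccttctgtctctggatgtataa
Cyp2a5: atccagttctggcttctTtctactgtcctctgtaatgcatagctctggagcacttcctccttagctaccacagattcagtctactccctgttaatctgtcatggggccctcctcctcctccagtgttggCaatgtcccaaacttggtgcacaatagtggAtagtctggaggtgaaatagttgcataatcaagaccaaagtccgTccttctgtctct

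Cyp2a4 was low in most livers, and below Cyp2a5 in every one. Its median over the 18 livers was 0.931, its second highest value was 7.0 in ZT13 replicate 1, and its highest was 88.4 in ZT5 replicate 1. The 24 h fit gave an amplitude of 0.80 ± 0.44 (SE, log2, adjusted P-value 0.32 in limma) and, without ZT5 replicate 1, 0.62 with an adjusted P-value of 0.0563. In the annotation, 38.8% of the 50-base stretches of Cyp2a4 also occur in other genes, mainly Cyp2a5, so that reads of the pair were partly divided by estimation.

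Between both genes on chromosome 7, 14.1 kb before Cyp2a5, lies Cyp2g1, best known from the olfactory mucosa. It was low throughout, with values of 1.52 to 2.19 at ZT5, 1.82 to 2.30 at ZT9, 1.06 to 1.189 at ZT13 and 0.13 to 0.446 in the livers of ZT1, ZT17 and ZT21. The ZT5, ZT9 and ZT13 livers were thus all above the others. The amplitude was 0.71 ± 0.065 (SE, log2) with a peak at 8.18 ± 0.35 h (adjusted P-value of 1.53e-06 in limma, the lowest of the 54). At such values the added 1 lowers the amplitude, and the mean of Cyp2g1 at ZT9 was 8.09-fold that at ZT17. Its mean of 0.99 was below the limit for named genes, so it is described here because of its values. Of the other members of the subfamily, Cyp2a12 varied little, with an amplitude of 0.12 ± 0.036 (SE, log2) and an adjusted P-value of 0.0474, the last below the threshold, and Cyp2a22 was not called (0.852).

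**Figure D3:**
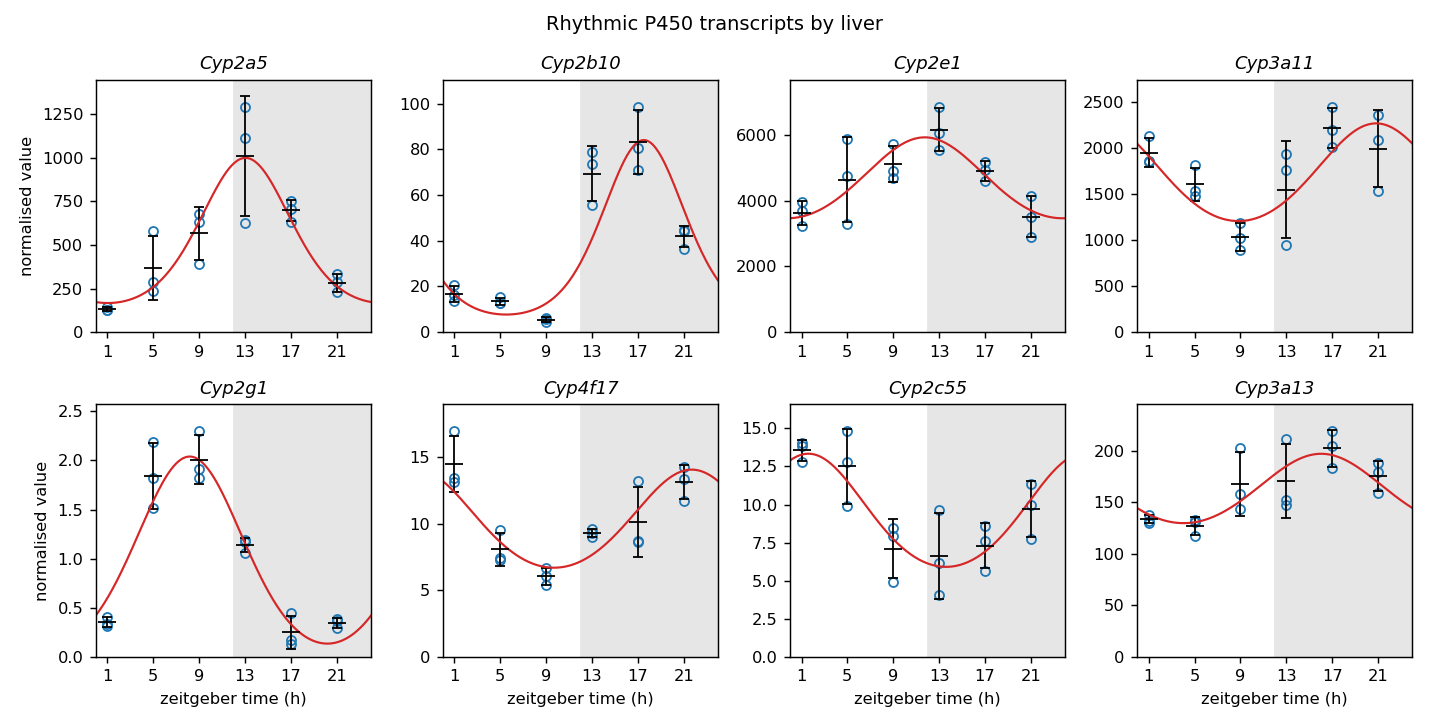
Normalised values (y axis, from 0) of 8 called P450 genes by zeitgeber time (x axis, h), with each liver as a circle, mean ± SD of 3 livers in black, the fitted 24 h curve in red and the dark phase in grey. Cyp2a5 peaks at ZT13, Cyp2b10 jumps between ZT9 and ZT13, and Cyp2g1 is high only from ZT5 to ZT13.

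Among genes known as targets of CAR and PXR, the receptors that induce drug metabolism, 6 of 7 were called (against 35.3% of all genes), 5 with a peak in the dark (against 17.1% of all genes) and Cyp2c55 with a peak in the light. Cyp2b10, the classical CAR target, had the largest amplitude of all members. Its values were 13.8, 20.5 and 16.1 at ZT1, 12.8, 15.2 and 12.6 at ZT5, 6.17, 4.33 and 5.86 at ZT9, 78.8, 55.8 and 73.5 at ZT13, 98.6, 70.9 and 80.5 at ZT17, and 44.8, 44.4 and 36.5 at ZT21. All dark livers were above all light livers, and the step between the neighbouring time points ZT9 and ZT13 went from a highest value of 6.17 to a lowest of 55.8. The amplitude was 1.64 ± 0.22 (SE, log2), the peak 17.5 ± 0.50 h and the adjusted P-value 6.92e-05 in limma. Across time points Cyp2b10 varied 5.32 times as much as between livers of a time point (ratio of the coefficients of variation), the highest such ratio of the 54 genes.

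Cyp3a11, the main PXR-induced drug-metabolising P450 of mouse liver, stood at 1848, 1859 and 2128 at ZT1, 1474, 1535 and 1810 at ZT5, 1187, 886 and 1024 at ZT9, 944, 1927 and 1761 at ZT13, 2197, 2008 and 2444 at ZT17, and 1533, 2351 and 2080 at ZT21. The ZT17 livers were all above the ZT9 livers, by 2.15-fold in the mean, and 1 ZT13 liver was as low as those of ZT9. Its amplitude was 0.45 ± 0.10 (SE, log2), with a peak at 20.8 ± 0.84 h (adjusted P-value of 0.0057 in limma). Its relative Cyp3a13 was higher at ZT17 (183 to 219) than at ZT5 (117 to 132), with a peak at 16.1 h and an adjusted P-value of 0.0036, while Cyp3a25 and Cyp3a59 were not called (0.0746 and 0.0973), Cyp3a25 except without ZT5 replicate 1 (0.045) or ZT21 replicate 2 (0.0193) and with values scaled to the column sum (0.025) or a variance trend (0.0482).

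The windows upstream of Cyp2b10 (plus strand, chr7:25897408-25897619) and Cyp3a11 (minus strand, chr5:145879965-145880104) are shown as those of the leading CAR and PXR targets, cut and sourced as above. Capitals mark the letters AGGTCA, the element that nuclear receptors bind, searched on both strands.
Cyp2b10: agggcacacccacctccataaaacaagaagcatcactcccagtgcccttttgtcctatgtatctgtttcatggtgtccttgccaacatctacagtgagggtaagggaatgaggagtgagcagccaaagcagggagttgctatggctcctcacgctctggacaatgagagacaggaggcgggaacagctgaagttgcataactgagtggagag
Cyp3a11: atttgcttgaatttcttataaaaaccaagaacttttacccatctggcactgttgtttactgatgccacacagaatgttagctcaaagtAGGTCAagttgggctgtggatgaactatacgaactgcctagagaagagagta
Of the 44 members with a RefSeq promoter entry, which runs from 250 bases before to 50 bases after the start, 12 held AGGTCA, against 18.1% of all genes. The 12 include the near copies Cyp2a4 and Cyp2a5, and Cyp3a25 and Cyp3a59. Their aligned bases before the start were 98.4% and 95.6% identical, so they do not count as independent genes. The D-box letters TTATGTAA or TTACGTAA, bound by Dbp, Tef, Hlf and Nfil3, were in 0 of the 44 (1.23% of all genes), and the E-box letters CACGTG in 2 of them, Cyp2j6 and Cyp4v3 (8.09% of all genes). The AHR element TNGCGTG was in 1, Cyp2c68 (5.84% of all genes). Windows of this length hold only the proximal promoter, and no match says only that these letters are not in them.

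The remaining targets of CAR and PXR belong to subfamily 2c, whose members oxidise arachidonic acid and drugs. Cyp2c29 was at 1213 to 1494 in the ZT9 livers and 1804 to 2249 at ZT17, without overlap, with a peak at 19.3 h and an adjusted P-value of 0.0348. Cyp2c37 was at 179 to 233 at ZT9 and 267 to 343 at ZT21, with a peak at 18.6 h and an adjusted P-value of 0.0046. Cyp2c50 had a similar peak, 18.3 h, but did not pass the test (0.116), except without ZT5 replicate 3 (0.0363).

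Cyp2c55 differed from these in timing. Its values were 12.8 to 14.02 at ZT1, 9.94 to 14.8 at ZT5, 4.89 to 8.47 at ZT9, 4.06 to 9.62 at ZT13, 5.67 to 8.61 at ZT17 and 7.75 to 11.4 at ZT21, so that its livers were highest when the day began. Its peak was at 1.60 ± 0.69 h (amplitude 0.53 ± 0.096, SE, log2, adjusted P-value of 0.0013 in limma).

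Subfamily 2c as a whole had 5 of 13 members called, against 35.3% of all genes, and 3 of them had a peak in the dark. Besides those above, Cyp2c70, which makes the muricholic acids that set mouse bile acids apart, had values of 404 to 552 at ZT5 and 748 to 1137 at ZT21, with a peak at 19.6 h and an adjusted P-value of 0.0172. Cyp2c44, an epoxygenase, was highest at ZT5 (419 to 436) and lowest at ZT21 (300.2 to 365), with a small amplitude of 0.14 ± 0.041 (SE, log2) and an adjusted P-value of 0.034. In the cluster on chromosome 19 (39007019 to 40187333, GRCm38), which holds 12 of the 13 genes, 4 were called, and neighbours such as Cyp2c55 and Cyp2c29 peaked at different times, 1.60 h and 19.3 h.

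Cyp2c40, Cyp2c67, Cyp2c68 and Cyp2c69 form a run of near copies in this cluster. Between 43.3% and 60.3% of their 50-base stretches occur in other genes, so values of the single genes are uncertain. By limma and by JTK 0 of the 4 were called (against 35.3% and 14% of all genes), and 0 had an unadjusted P-value below 0.05 in limma. Their adjusted P-values were 0.73, 0.566, 0.275 and 0.711. All 4 were lowest in ZT13 replicate 2, at 12.7, 188, 141 and 1.87.

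AHR targets were called in 2 of 3 cases, against 35.3% of all genes. Cyp1a2, which oxidises caffeine and aromatic amines, was at 427, 702 and 752 at ZT5, 851, 1048 and 875 at ZT13 and 883, 899 and 849 at ZT17, so that the ZT13 and ZT17 livers were all above those of ZT5. Its peak was at 15.1 ± 1.0 h, with an amplitude of 0.26 ± 0.071 (SE, log2) and an adjusted P-value of 0.0235, which was 0.052 without ZT13 replicate 2. Cyp1a1, the most inducible AHR target, was low, at 0.604 to 1.34 at ZT1 and 1.65 to 2.33 at ZT17, with a peak at 15.4 h and an adjusted P-value of 0.0163. Cyp1b1 was at most 1.01 in all livers and was not called (0.256).

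Of the members known as pericentral (Cyp1a2, Cyp2c29, Cyp2c37, Cyp2c50 and Cyp2e1), 4 of 5 were called, all but Cyp2c50, against 35.3% of all genes. JTK called 0 of the 5, against 14% of all genes. Cyp2c29, Cyp2c37 and Cyp2c50 were also counted with the CAR and PXR targets, and Cyp1a2 with the AHR targets. The shares of these lists are therefore not independent. Cyp2e1 was at 3697, 3954 and 3226 at ZT1, 3297, 4765 and 5871 at ZT5, 5737, 4684 and 4921 at ZT9, 5562, 6864 and 6075 at ZT13, 5179, 4950 and 4592 at ZT17, and 4142, 3520 and 2888 at ZT21. The livers of ZT13 were all above those of ZT21, by 1.75-fold in the mean, while ZT5 spread over most of the range. The peak was at 11.8 ± 0.71 h, with an amplitude of 0.39 ± 0.072 (SE, log2) and an adjusted P-value of 0.0016 in limma. The summed level of the pericentral markers Glul, Oat, Rhbg, Slc1a2, Lgr5 and Axin2 was 989.4 to 1211 at ZT1, 1158 to 1777 at ZT5, 1216 to 1292 at ZT9, 1314 to 1405 at ZT13, 1146 to 1246 at ZT17 and 930.8 to 1169 at ZT21. Of the 6, 3 were called, against 35.3% of all genes, Slc1a2 with a peak at 9.53 h, Rhbg at 13.4 h and Lgr5 at 3.39 h. The part of this summed level in the levels of Cyp2e1 was not tested. The periportal Cyp2f2 was not called (1028 to 1286 at ZT5 and 1314 to 1586 at ZT17, adjusted P-value 0.138). Of the periportal markers Pck1, Hal, Sds, Gls2 and Cdh1, 4 of 5 were called, all but Gls2. Their sum lay between 1020 and 2949, so rhythm was not particular to pericentral genes.

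In subfamily 2d, which includes many drug-oxidising enzymes, 1 of 8 was called, against 35.3% of all genes, and Cyp2d9, Cyp2d10 and Cyp2d40 had unadjusted P-values of 0.041, 0.036 and 0.041 in limma. The called gene was Cyp2d26, at 550, 743 and 804 at ZT5 and 882, 898 and 842 at ZT13 (peak 14.8 h, adjusted P-value 0.0471). The 3 members of subfamily 2j, epoxygenases of arachidonic acid, were not called, although Cyp2j5 and Cyp2j9 had unadjusted P-values of 0.0315 and 0.0354 in limma. Cyp2j6, at 69.6 to 96.8 over all livers, had the smallest amplitude of the 54 genes, 0.05 ± 0.052 (SE, log2). Cyp2r1, which hydroxylates vitamin D, was at 16.0 to 18.2 at ZT1 and 8.73 to 14.8 at ZT13, with a peak at 2.65 h and an adjusted P-value of 0.0468.

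Family 4 hydroxylates fatty acids and leukotrienes at their ends, and 3 of its 11 genes were called, against 35.3% of all genes. Cyp4f17 was clearest, at 13.1, 13.4 and 16.9 at ZT1, 7.30, 9.52 and 7.43 at ZT5, 6.66, 6.08 and 5.38 at ZT9, 9.02, 9.32 and 9.61 at ZT13, 8.59, 13.2 and 8.66 at ZT17, and 14.2, 11.7 and 13.3 at ZT21. The livers of ZT1 were all above those of ZT9, by 2.40-fold in the mean, and the peak was at 21.7 ± 0.61 h (amplitude 0.48 ± 0.078, SE, log2, adjusted P-value of 0.00047 in limma). Its cluster neighbour Cyp4f14 had a similar peak, 21.4 h, with a smaller amplitude of 0.16 ± 0.045 (SE, log2) and an adjusted P-value of 0.0306. Cyp4b1, at 12.6 to 21.1 at ZT5 and 7.06 to 11.8 at ZT21, peaked at 7.07 h (adjusted P-value 0.0414).

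The PPARA targets Cyp4a31 and Cyp4a32, fatty acid hydroxylases, were called in 0 of 2 cases by limma, against 35.3% of all genes. In limma 0 had an unadjusted P-value below 0.05, and JTK called 0, against 14% of all genes. Cyp4a31 lay between 2.94 and 12.5 and Cyp4a32 between 8.56 and 40.4, with livers of 1 time point as far apart as 15.8 and 40.4 at ZT21. In Cyp4a32, 43.8% of the 50-base stretches occur in other genes, mainly Cyp4a10, and in Cyp4a31 20.6%. Their reads were thus partly divided by estimation. Cyp4v3 was at 327 to 570 and Cyp4f13 at 51.8 to 70.1 over all livers, and neither was called (0.267 and 0.322). Cyp4x1, best known from brain, Cyp4f18, best known from neutrophils, and Cyp2s1 of family 2, found mainly outside the liver, were at most 2.40, 1.14 and 1.48, and none was called. Over all 35 genes not called the amplitude was between 0.05 and 0.80, and 8 of them had an unadjusted P-value below 0.05 in the 24 h limma fit. That share was not compared with all genes not called.

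With each liver left out in turn, 11 of the 19 kept their call in all 18 fits, which includes each named above with an adjusted P-value up to 0.0172. Cyp4f14 kept it in 15 fits, lost without ZT9 replicate 1, ZT9 replicate 2 or ZT21 replicate 1 (up to 0.0748), Cyp2c44 and Cyp2c29 in 12 each (up to 0.0928 and 0.0809), and Cyp4b1 in 10 (up to 0.0908). Cyp2r1 kept it in 6 fits, Cyp2a12 in 3 and Cyp2d26 in 2. The next gene beyond the threshold was Cyp2c39, at 0.0612, and 10 of the 35 genes not called passed in at least 1 of these fits. Without ZT5 replicate 1, the liver lowest in 13 of the 54, 6 calls ended, those of Cyp2a12 (0.0831), Cyp2c29 (0.0707), Cyp2c44 (0.0521), Cyp2d26 (0.0728), Cyp2r1 (0.078) and Cyp4b1 (0.0872), and Cyp2d40 (0.0364) and Cyp3a25 (0.045) passed. Without ZT5 replicate 3, whose clock genes were nearer to ZT9, 3 calls ended, those of Cyp2a12 (0.0567), Cyp2c44 (0.057) and Cyp4b1 (0.0649), and 4 genes passed, namely Cyp2c39 (0.0497), Cyp2c50 (0.0363), Cyp2c54 (0.0284) and Cyp2j9 (0.0334).

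Several members varied widely between livers of the same time point. Over genes with a mean of at least 1, the median coefficient of variation between livers of a time point was 0.16 in the P450 genes and 0.12 in all genes, and between time points 0.148 and 0.132. The first of these was highest in Cyp2a4 (0.97). It was at least as large as that between time points in 28 of the 54 genes, among them Cyp2c69 (0.625 against 0.296) and Cyp2c40 (0.473 against 0.208). That count was not made over all genes, so it is not a result about P450 genes. Cyp2a4, Cyp2c69, Cyp2c40 and Cyp2b9 are known as female-predominant. A 24 h rhythm was called in 0 of the 4 by limma (35.3% of all genes) and 0 by JTK (14% of all genes). In limma 0 had an unadjusted P-value below 0.05. With such spread between livers, the lack of a call does not show that a rhythm is absent. Cyp2c40 was highest in ZT5 replicate 1 (79.0), ZT13 replicate 1 (71.1), ZT1 replicate 2 (68.6) and ZT21 replicate 2 (67.3), against a median of 33.1. Cyp2c69 was highest in the same 4 livers, at 29.8, 19.4, 20.4 and 23.5, against a median of 8.28. Since they share sequence, the likeness of the pair is not independent.

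In ZT5 replicate 1, Cyp2a4, Cyp2c40 and Cyp2c69 were all highest. The male-predominant Cyp2d9, a testosterone hydroxylase, was at its lowest there, 683.9, against 982.7 in the next liver and a median of 1164. This liver was the lowest in 13 members, Cyp2d9 included. Among them were Cyp1a2 (427.1), Cyp2a12 (423.9), Cyp2c37 (153.9), Cyp2c50 (449.9) and Cyp2c54 (171.1), which are not listed here as male- or female-predominant. A low value in this liver was therefore not particular to the male-predominant member. Cyp2d9 was not called (0.0928). The Y-linked gene Ddx3y, looked at after these values were seen, was between 52.1 and 93.3 in all 18 livers, as labelled for males. Cyp2b9, the other female-predominant member, had its highest values in other livers, ZT13 replicate 2 (4.72) and ZT5 replicate 3 (3.83). It was at the floor of 0 reads in 7 livers. Cyp2b9 passed the test between time points, with an adjusted P-value of 0.0365, which rose to as much as 0.0629 when a liver was left out and held in 8 of 18 fits.

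**Figure D4:**
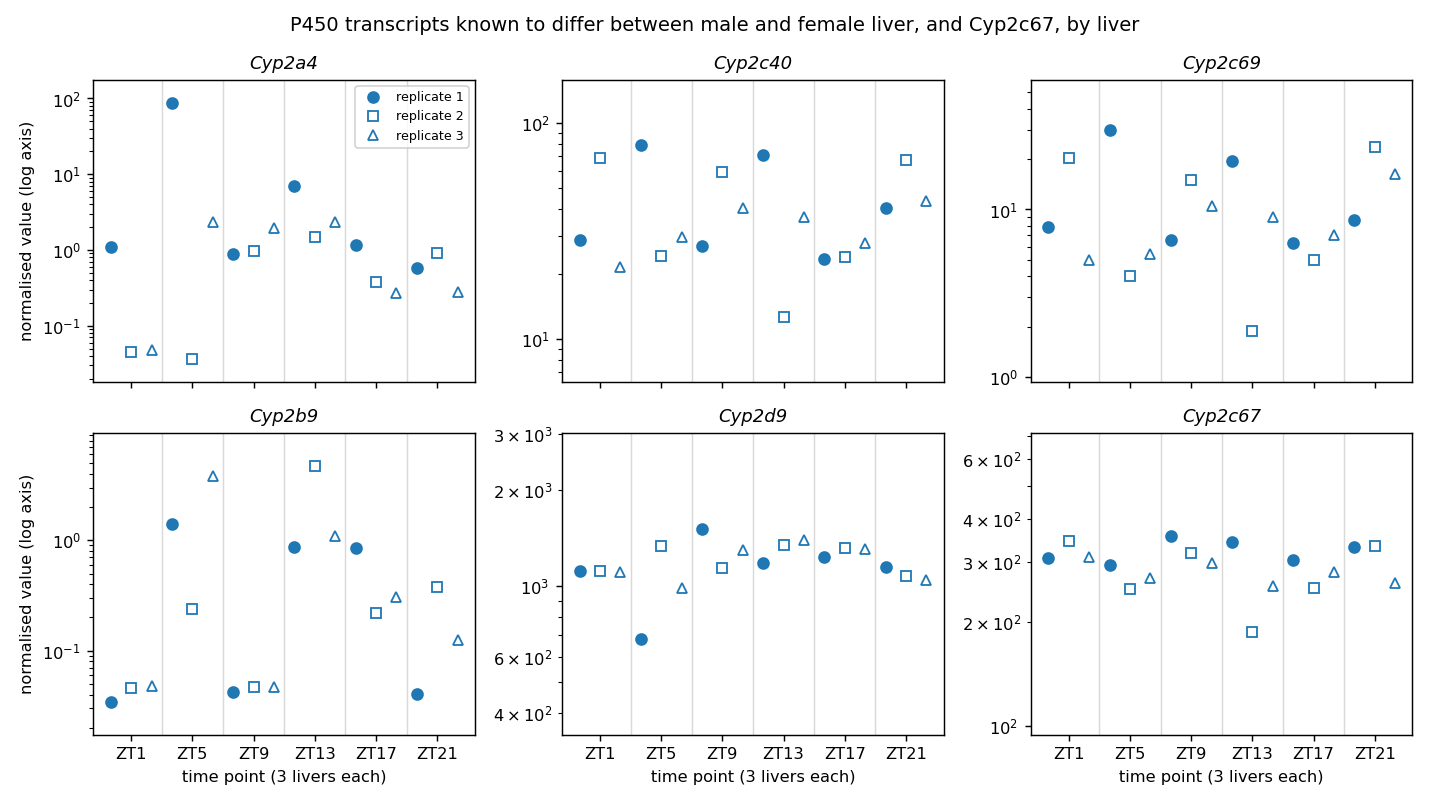
Normalised values (y axes, log scale, each with its own range) of 4 female-predominant members, of the male-predominant Cyp2d9 and of Cyp2c67 in the 18 livers (x axis, by time point, marker shape by replicate). ZT5 replicate 1 is highest for Cyp2a4 (88.4), Cyp2c40 (79.0) and Cyp2c69 (29.8) and lowest for Cyp2d9 (683.9). It is also lowest for members not listed as male- or female-predominant and not shown, such as Cyp1a2 (427.1). ZT13 replicate 2 is lowest for Cyp2c40, Cyp2c69 and Cyp2c67.

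The genes that supply P450 enzymes with electrons and heme were called in 4 of 6 cases, against 35.3% of all genes. Por, the reductase shared by these enzymes, rose from a mean of 91.8 at ZT1 to 488 at ZT13, with a peak at 11.9 ± 0.37 h (amplitude 1.06 ± 0.10, SE, log2, adjusted P-value of 2.62e-06 in limma). Alas1, which makes the rate-limiting step of heme synthesis, had its highest mean at the same time, 873 at ZT13 against 141 at ZT1 (peak 13.2 h, adjusted P-value 0.0195). Cyb5a and Cyb5b, which pass electrons to some P450 enzymes, peaked at 16.0 h and 22.3 h, and Cyb5r3 and Pgrmc1 were not called. The called members with peaks nearest to those of Por and Alas1 were Cyp2e1 and Cyp2a5.

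Of the 14 listed regulators in the table, 10 were called, against 35.3% of all genes. The 10 include Dbp, Tef, Hlf and Nfil3, which also belong to the 18 clock genes and are known to be rhythmic. The share is therefore not a result about the other regulators. Nr1i3 (CAR) had its lowest mean at ZT1, 116, and its highest at ZT9, 266, when Cyp2b10 was lowest, with a fitted peak at 13.3 ± 0.81 h (adjusted P-value of 0.0045 in limma). Nr1i2 (PXR) peaked at 14.4 h and its partner Rxra at 9.41 h, both before the peaks of Cyp2b10 and Cyp3a11. The clock output factors Dbp, Tef and Hlf, which are known to drive Por and several P450 genes, peaked at 8.59 h, 10.7 h and 12.0 h, and their opponent Nfil3 at 20.7 h. Ppara peaked at 8.33 h, Hnf4a at 12.8 h and Stat5b, which relays growth hormone, at 1.45 h. Ahr, Arnt, Tiparp and Bcl6 were not called, with adjusted P-values of 0.661, 0.856, 0.0804 and 0.223, although Arnt passed the test between time points (0.0116) and that of the 12 h term (0.0479), with its highest mean, 45.5, at ZT1 and its lowest, 33.4, at ZT5.

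**Figure D5:**
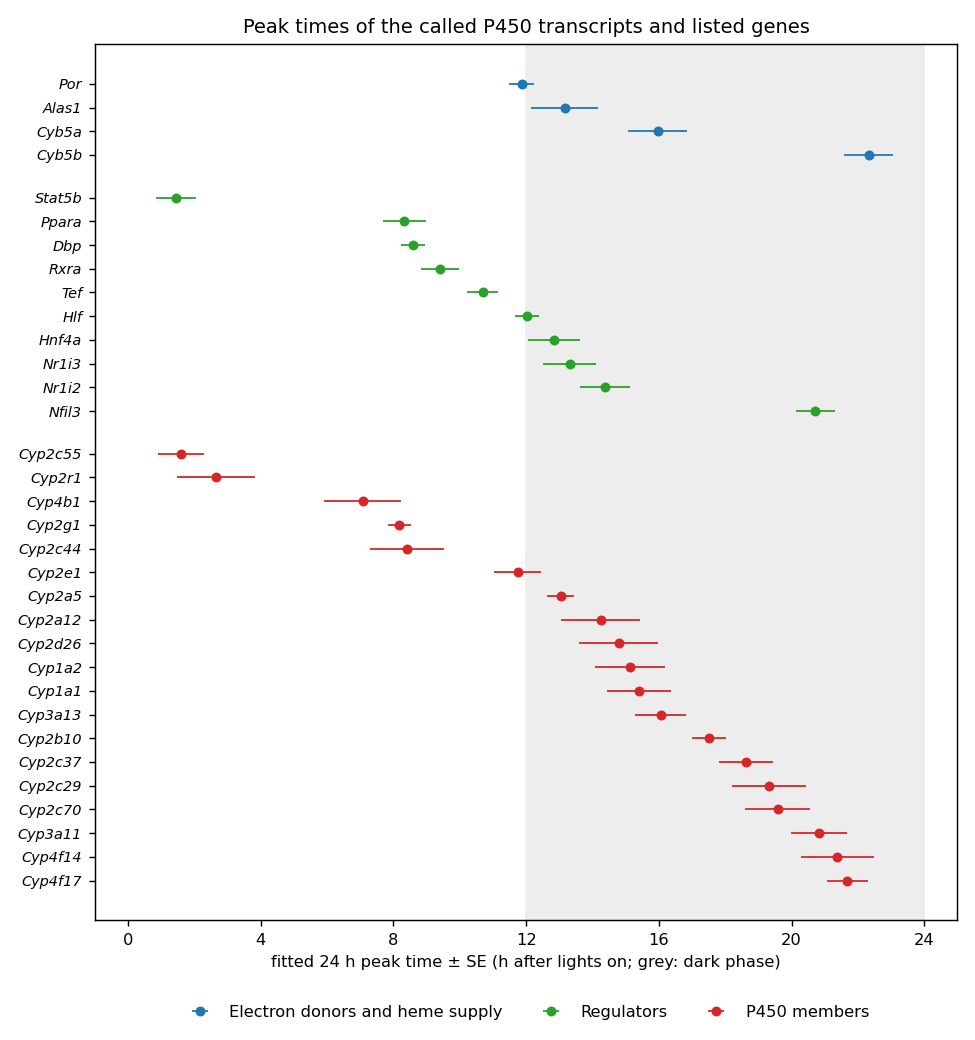
Fitted 24 h peak times (x axis, hours after lights on, ± SE from the limma fit to 18 livers) of the 19 called P450 genes (red) and of the called genes for electron and heme supply (blue) and regulation (green), with the dark phase in grey. The P450 peaks are spread from 1.60 h (Cyp2c55) to 21.7 h (Cyp4f17), with 13 of 19 in the dark.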

How the data were processed

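PolyA RNA of 18 whole livers was sequenced on a HiSeq2500. The authors trimmed adapters with Cutadapt, assigned reads to GRCm38 genes with RSEM 1.2.20 and normalised the estimated counts with limma. Each deposited value is a linear signal, an estimated count to which 0.5 was added before scaling to an effective library size of 1000000. Their lowest value in a liver stands for 0 reads. They were not whole reads, so no count model was used.

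After 2 genes at the floor in every liver were left out, log2(value + 1) was fitted with limma 3.58.1 (R 4.3.3), and 24 h terms, 12 h terms and time points were tested by moderated F tests with Benjamini–Hochberg adjustment. JTK, MC (JTK with Lomb–Scargle) and the cosine curve of CircaN were written again in Python 3.11.15. The limma tests and JTK were tried on simulated data, and MC and the CircaN cosine were not. Errors of peak times are from the delta method. Shared 50-base stretches and exon lengths are from GENCODE M21.

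Named genes were the 12 of lowest 24 h adjusted P-value, the 5 of largest ratio between time points, up to 4 called for 12 h, the 5 of highest time point P-value among abundant members, and known markers. The members, lists and markers were chosen with earlier results of these data known. The alternatives were pseudocounts, linear values, a filter, scalings, a variance trend, other algorithms and leaving out each liver.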

Additional observations from a re-analysis of the deposited data

How the results depend on the processing

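The count of 19 members with a 24 h rhythm in limma was between 17 and 21 with other pseudocounts, linear values, a filter on the mean, other scalings and a variance trend, and between 14 and 20 with each liver left out. Of all genes, 34.5% to 41.4% were called with those settings and 31.6% to 35.2% with each liver left out. The member count was 7 with MC in place of limma (18.2% of all genes) and 3 with the cosine curve of CircaN (11.2% of all genes), and all of these were among the 19. JTK called 4 members, 8 when only 24 h was tried (17.4% of all genes) and 7 when equal orders were counted once (18% of all genes). With each liver left out JTK called between 2 and 5 (7.8% to 12.4% of all genes). The test between time points called 10 members, between 8 and 13 with other settings (24.8% to 32.1% of all genes). With each liver left out it called between 7 and 14 (22.5% to 24.9% of all genes). The 12 h term called 0 members, 1 with genes of mean value at least 1 (1.18% of all genes) and 1 with a variance trend (1.22%). With each liver left out it called between 0 and 1 (0.221% to 0.789% of all genes), the gene being Cyp2b10 each time. Scaling to the column sum moved the median of a liver by at most 0.10 (log2) and ended 4 calls, those of Cyp2a12 (0.0681), Cyp2c29 (0.0849), Cyp2d26 (0.0849) and Cyp4f14 (0.0743), while Cyp2j9 (0.0271) and Cyp3a25 (0.025) passed. In the main fit the peaks of these 4 lay in the dark, and those of Cyp2j9 and Cyp3a25 in the light, at 3.68 h and 4.18 h. Without ZT5 replicate 3, 20 members were called, 16 of them among the 19, and without ZT5 replicate 1 they were 15 and 13. Of the 28 named members, 22 kept their side of the threshold in all limma fits, leaving out each liver included, and no fitted peak of a called one moved by more than 6 h in them. Among these 22, MC and the CircaN cosine both ended the calls of Cyp1a1, Cyp2c37, Cyp2c70 and Cyp3a11, and the cosine also those of Cyp2c55, Cyp2e1, Cyp3a13 and Cyp4f17. No paired analysis was possible because the replicate numbers only name livers within a time point. The 5 members of mean value under 1 had few reads, at most 12 in a liver for Cyp1b1 and 91 for Cyp2b9.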
